A study of Mus musculus with 8 samples.

Results

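The 9 genes described here are known mainly from cells of the red blood cell lineage: Alas2 of heme synthesis, the embryonic globins Hbb-y, Hbb-bh1 and Hba-x, the membrane genes Slc4a1, Rhag, Rhd and Epb42, and the transcription factor Klf1. They were chosen by name with earlier results of these data known, so counts over the 9 describe them and are no independent support. A gene counted as measured when the platform annotation gave a probe set that symbol alone. All 9 of 9 were measured, each by 1 probe set, among 19938 genes tested. The RNA came from the brain cortex of mouse embryos of mixed strain background, taken at embryonic day 16, and each of 8 Affymetrix whole-transcript arrays read 1 sample. The VEGF group holds 4 arrays of GFAP-tTA: TetO-VEGF-A164 bitransgenic embryos, where the promoter of Gfap, a gene of radial glia and astrocytes, drives a tetracycline-controlled transactivator and this in turn switches on a VEGF-A transgene. The control group holds 4 arrays labelled wild type. The protocol describes the controls as lacking TetO-VEGF-A164, and no label says whether any of them carries GFAP-tTA, so an effect of VEGF-A and one of the other differences in genotype cannot be told apart. The labels do not say whether an array holds 1 embryo or a pool, nor how the embryos fall into litters, so the p-values measure only the spread between these arrays.

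Red blood cells carry oxygen on hemoglobin, a tetramer of globin chains that each hold a heme. In the mouse embryo the first red cells come from the yolk sac and make embryonic globins, and later ones come from the fetal liver and make adult globins. Erythroid precursors build heme in their mitochondria, where Alas2 catalyses the first step, and insert band 3, the Rh proteins and a spectrin skeleton into their membrane. Klf1 and Gata1 are transcription factors that switch on most of these genes, by binding CACCC and GATA sequences near them. The cortex makes no red cells of its own, but blood passes through its vessels.

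To show where the letters of some binding sites fall near these genes, the 250 bases before the RefSeq transcription start are given. They are shown for the members of largest difference that have an entry, Alas2, Hba-x and Hbb-y (GRCm38.p6, 5′ to 3′ on the gene's own strand). Capitals mark matches on either strand to the letters GATAA of a GATA site, CACCC of a Krüppel-like factor site, the CCAAT box and the letters TATAAA of a TATA box, and overlapping matches form a single run. The Alas2 window is chrX:150547167-150547416 on the plus strand, the Hba-x window chr11:32276350-32276599 on the plus strand and the Hbb-y window chr7:103853208-103853457 on the minus strand.
Alas2: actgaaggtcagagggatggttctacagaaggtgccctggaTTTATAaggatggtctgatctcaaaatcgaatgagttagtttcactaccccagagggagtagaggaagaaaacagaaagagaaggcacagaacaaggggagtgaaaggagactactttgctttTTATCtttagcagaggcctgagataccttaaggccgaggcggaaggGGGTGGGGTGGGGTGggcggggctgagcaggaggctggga
Hba-x: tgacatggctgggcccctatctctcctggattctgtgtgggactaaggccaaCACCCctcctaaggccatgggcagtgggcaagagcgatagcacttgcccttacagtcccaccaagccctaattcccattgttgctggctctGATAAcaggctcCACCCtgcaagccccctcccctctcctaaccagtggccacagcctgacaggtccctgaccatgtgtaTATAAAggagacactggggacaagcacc
Hbb-y: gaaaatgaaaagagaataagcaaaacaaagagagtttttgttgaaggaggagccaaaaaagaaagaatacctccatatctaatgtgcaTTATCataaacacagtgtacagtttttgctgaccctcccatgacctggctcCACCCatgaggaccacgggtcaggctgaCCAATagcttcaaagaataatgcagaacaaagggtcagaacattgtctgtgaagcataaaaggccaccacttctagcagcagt
Alas2 has 3 CACCC matches, all on the antisense strand and all between 40 and 26 bases before the start, and 1 GATAA match at 86 to 82 bases before it. Hba-x, an embryonic alpha-type globin, has CACCC matches beginning 198 and 95 bases before the start, GATAA at 107 and the TATAAA match at 28. Hbb-y, an embryonic beta-type globin, has GATAA at 162, CACCC at 111 and CCAAT at 83 bases before the start. Among the 7 members with a window, GATAA was found in 7 of 7, against 22.6% of all 32851 RefSeq windows of the same length, and CACCC in 6 of 7, against 52.0%. The longer forms AGATAA and CCNCNCCC were found in 3 and 2 of the 7, against 9.99% and 45.9% of all windows. CCAAT was found in 4 of 7, against 33.8%, and TATAAA in 3 of 7, against 12.4%. Of the TATAAA matches only that of Hba-x was on the sense strand. Those of Alas2 and Epb42 were on the antisense strand, beginning 209 and 126 bases before the start. The letters were settled with these windows in view, so the shares only describe them. Whether any match controls its gene was not tested. Hbb-bh1 and Slc4a1 were not among the windows used here.

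The deposited values look like logarithms and are treated as log2, and for each probe set the median of the 8 arrays was set to 0. A value therefore says how far an array lies above or below the gene's middle array, levels cannot be compared between genes, and presence or absence of a gene cannot be read. Array medians lay between -0.0091 and 0.0154, and the middle 50% of an array's values spanned 0.061 to 0.142. Xist, the RNA of the inactive X chromosome, showed a female pattern in VEGF 2, VEGF 3 and control 3. Of the 19938 genes, 0 passed an adjusted p of 0.05 with limma and Benjamini-Hochberg adjustment. At an unadjusted p under 0.05, 921 genes were higher and 1563 lower in the VEGF group, and the methods' t-test gave 0 genes after adjustment and 2114 without it.

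All 9 erythroid genes had a higher mean in the VEGF group than in control, where 43.3% of all genes did, and the median difference was 0.31 on the log2 scale beside -0.010 over all genes. The differences ranged from 0.83 for Alas2 to 0.0067 for Klf1. None of the 9 passed the test over all genes (limma, lowest adjusted p = 0.293), a call that 0.0% of all genes reached. At an unadjusted p under 0.05 there were 3 of 9, Alas2, Hbb-y and Rhd, against 4.62% of all genes on the higher side. In 0 of 9 genes did the 4 VEGF arrays lie wholly above the 4 control arrays, against 2.13% of all genes, and in 0 of 9 wholly below them, against 4.71%. The group difference was carried by part of the VEGF group. VEGF 1 was the highest of the 8 arrays in 9 of 9 genes, against 13.0% of all genes, and exceeded all control arrays in 9 of 9, against 23.3%. VEGF 3 exceeded all control arrays in 7 of 9 genes, against 21.6%. VEGF 2 did so in 4 of 9, against 27.8%, and VEGF 4 in 1 of 9, against 16.3%. What lies behind the higher values was not tested. In bulk tissue, for instance, more red cells and more RNA per red cell cannot be told apart.

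**Figure D1:**
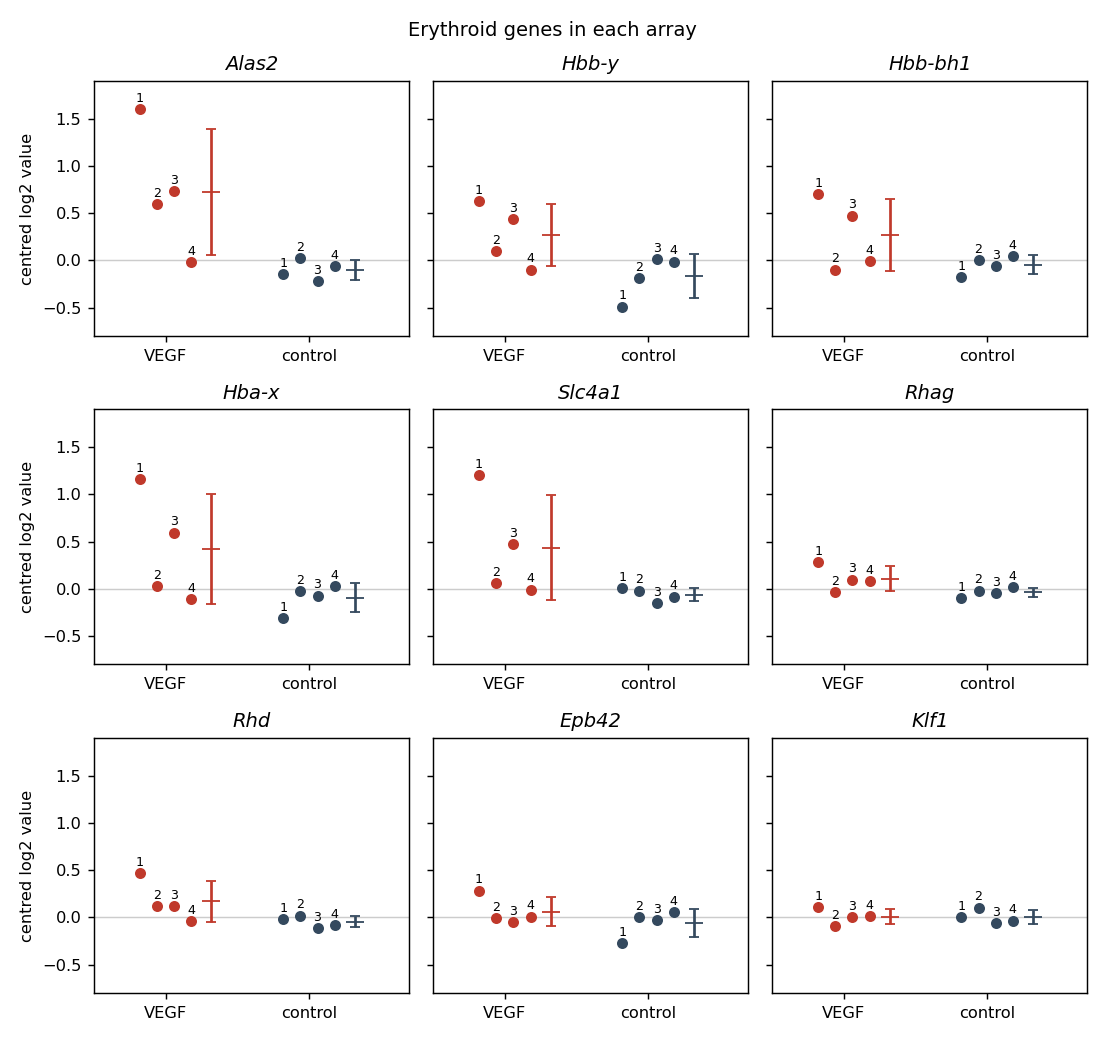
Centred log2 values (vertical axis) of the 9 erythroid genes in the VEGF arrays (red, left) and the control arrays (dark, right), numbered by replicate, with the mean ± SD of each group beside the points (n = 4 each). VEGF 1 is the highest point of every panel, reaching 1.60 in Alas2, while VEGF 4 lies between -0.11 and 0.08.

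Alas2, the erythroid enzyme that joins glycine to succinyl-CoA in the first and limiting step of heme synthesis, had the largest difference of the 9 and ranked at place 7 among all 19938 genes by size on the higher side. Its value was 1.60 in VEGF 1, 0.60 in VEGF 2, 0.73 in VEGF 3 and -0.02 in VEGF 4, against -0.14, 0.02, -0.22 and -0.06 in control 1 to control 4. VEGF 1, VEGF 2 and VEGF 3 were thus above every control array, and VEGF 4 lay inside the control range. The mean was 0.73 ± 0.67 in the VEGF group and -0.10 ± 0.10 in control (SD, n = 4 each). The difference was 0.83 with an SE of 0.276 (limma, unadjusted p = 0.0145, adjusted p = 0.293), or 1.78-fold if the base is 2. The SD within the VEGF group stood at percentile 99.9 of all genes, beside percentile 83.5 within control. Without VEGF 1 the difference was 0.54 (limma, unadjusted p = 0.0109, adjusted p = 0.299). Alas2 lies on the X chromosome. Its highest and lowest VEGF arrays, VEGF 1 and VEGF 4, both had the male pattern of Xist, and with the Xist value as a covariate the difference was 0.86 (adjusted p = 0.334).

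Hba-x encodes zeta-globin, the alpha-type chain of embryonic hemoglobin. It stood at 1.17 in VEGF 1, 0.03 in VEGF 2, 0.60 in VEGF 3 and -0.11 in VEGF 4, against -0.31, -0.03, -0.07 and 0.03 in the control arrays in order of replicate. Here VEGF 2 joined VEGF 4 within the control range. The difference was 0.52 with an SE of 0.246 (limma, adjusted p = 0.44), and it was 0.27 without VEGF 1 (adjusted p = 0.509).

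Hbb-y, encoding the epsilon-y chain of embryonic hemoglobin, stood at 0.63 in VEGF 1, 0.10 in VEGF 2, 0.44 in VEGF 3 and -0.10 in VEGF 4, against -0.49, -0.18, 0.01 and -0.01 in control. The groups overlapped through VEGF 4, and control 1 was the lowest array. Its difference was 0.44 with an SE of 0.165 (limma, unadjusted p = 0.0261, adjusted p = 0.339). Unlike Alas2 its spread was wide in both groups, with an SD of 0.33 in the VEGF group and 0.23 in control, at percentiles 98.2 and 98.8 of all genes. Without VEGF 1 the difference was 0.32 (unadjusted p = 0.0713, adjusted p = 0.41).

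Hbb-bh1, the other embryonic beta-type chain, beta-h1, lies in the same gene cluster of chromosome 7 as Hbb-y. Its values were 0.70, -0.10, 0.47 and -0.01 in VEGF 1 to VEGF 4, against -0.18, 0.01, -0.06 and 0.05 in control 1 to control 4. Only VEGF 1 and VEGF 3 stood above the control arrays. The difference was 0.31 with an SE of 0.163 (limma, adjusted p = 0.483), and 0.17 without VEGF 1 (adjusted p = 0.611). Globin genes are close paralogs, and whether a probe set also reads other family members was not tested. The adult globins Hba-a1, Hba-a2, Hbb-bs and Hbb-bt were not analysed here.

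In VEGF 2 Alas2 stood above every control array, while the mean of the 3 embryonic globins lay within the control range. The globins differed there, with Hbb-y at 0.10 above its control arrays and Hba-x and Hbb-bh1 inside theirs. There Alas2 was at 0.60 while the mean of the 3 globins was 0.010, a gap of 0.59. In VEGF 1 the gap was 0.77, with both far above control, at 1.60 and 0.83. In VEGF 3 it was 0.23, in VEGF 4 0.05, and in the control arrays it lay between -0.18 and 0.18. The gap sets centred values side by side, not levels. It was noticed in the data and was not tested.

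Slc4a1, the band 3 anion exchanger that trades chloride for bicarbonate and anchors the membrane skeleton, had the same order of VEGF arrays as Hba-x. In control the order differed, with control 1 lowest in Hba-x and highest in Slc4a1. Its value was 1.21 in VEGF 1, 0.06 in VEGF 2, 0.47 in VEGF 3 and -0.01 in VEGF 4, against 0.01, -0.02, -0.15 and -0.08 in control. The control arrays stayed close together, with an SD of 0.071 at percentile 60.7, beside 0.56 in the VEGF group at percentile 99.7. The difference was 0.49 with an SE of 0.229 (limma, adjusted p = 0.425), and 0.24 without VEGF 1 (adjusted p = 0.386).

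The other membrane genes differed less. Rhd, the red cell Rh blood group protein of the mouse, was at 0.47, 0.12, 0.12 and -0.04 in VEGF 1 to VEGF 4, against -0.02, 0.02, -0.11 and -0.08 in control 1 to control 4, with VEGF 4 alone inside the control range. Its difference was 0.22 with an SE of 0.095 (limma, unadjusted p = 0.0487, adjusted p = 0.399). Rhag, the Rh-associated glycoprotein that the Rh complex needs to reach the membrane, was at 0.29, -0.04, 0.10 and 0.08, against -0.10, -0.02, -0.05 and 0.02. It was the only one of the 9 in which VEGF 4 exceeded every control array, and in it VEGF 2 was the array inside the control range. The difference was 0.14 with an SE of 0.064 (limma, adjusted p = 0.41). Without VEGF 1 it was 0.11 for Rhd and 0.083 for Rhag.

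Epb42, a membrane skeleton protein that ties band 3 to ankyrin, was at 0.28 in VEGF 1 and between -0.05 and 0.01 in the other VEGF arrays, against -0.27 in control 1 and -0.03 to 0.05 in the other control arrays. Apart from those 2 arrays the groups overlapped. The difference was 0.12 with an SE of 0.090 (limma, adjusted p = 0.666), and 0.043 without VEGF 1. Klf1, the erythroid Krüppel-like factor, lay between -0.09 and 0.11 in the VEGF group and between -0.06 and 0.10 in control. Its difference of 0.0067 with an SE of 0.0525 (limma, adjusted p = 0.978) changed sign without VEGF 1, at -0.028.

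**Figure D2:**
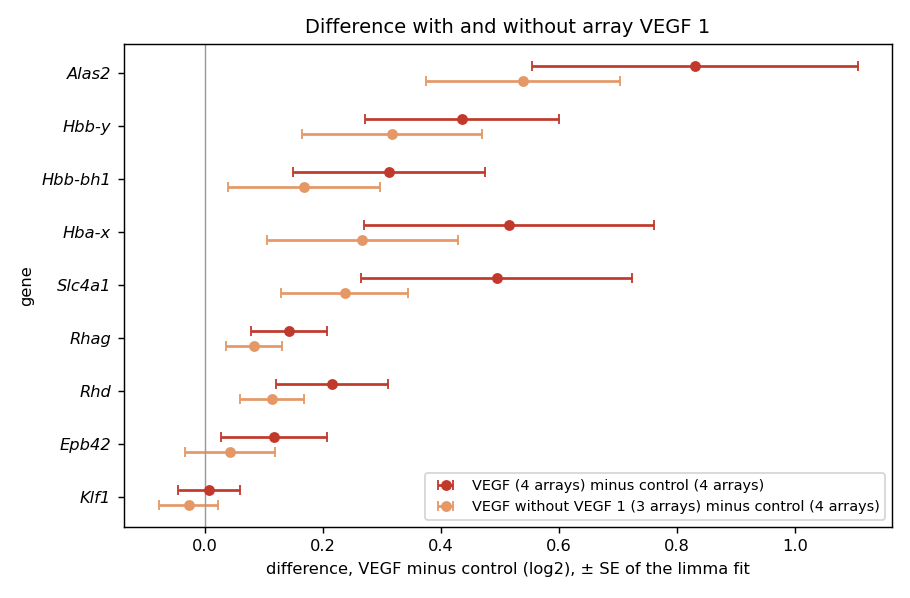
Difference between the groups on the log2 scale (horizontal axis, VEGF minus control, ± SE of the limma fit) for each of the 9 erythroid genes, with all arrays (red) and with VEGF 1 left out (orange). Leaving out VEGF 1 took Alas2 to 0.54, against 0.83 with all arrays, and Hba-x to 0.27, against 0.52.

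Leaving out VEGF 1 thus moved 8 of the 9 differences by more than 1.5 times, all but that of Hbb-y, and 8 of 9 stayed above 0, against 39.9% of all genes. The median was then 0.17 beside -0.018 over all genes, and at an unadjusted p under 0.05 there was 1 of 9, Alas2, against 5.9% of all genes on the higher side.

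As a description over the 8 arrays, of which VEGF 1 was the highest in every gene, the Pearson r of a gene with the mean of the other 8 was 0.977 for Hba-x, 0.953 for Slc4a1, 0.941 for Hbb-bh1, 0.937 for Rhag, 0.921 for Alas2, 0.904 for Rhd and 0.851 for Hbb-y. Epb42 followed at 0.758 and Klf1 at 0.511. With the group means taken out, the values were 0.971 for Hba-x and 0.893 for Alas2, and the lowest was 0.621 for Klf1. Over the 7 arrays other than VEGF 1, r was 0.931 for Hba-x, 0.882 for Hbb-bh1 and 0.771 for Alas2, but 0.588 for Rhd, 0.265 for Epb42 and -0.011 for Klf1.

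Other genes were ranked by the same measure, r with the mean of the 9 after scaling each gene to an SD of 1. The 10 named genes highest in this ranking had r between 0.944 and 0.970. VEGF 1 was the highest of the 8 arrays in all 10, against 13.0% of all genes, as the ranking favours. Their r without VEGF 1 was not computed. Of the 10, 3 were among the other erythroid genes listed here, 64 measured genes of the 19938 tested. That list was chosen with earlier results of these data known, so the 3 are no independent support. Fech, ferrochelatase, which inserts iron into heme, came first at 0.970, Slc25a37, mitoferrin, which carries iron into the mitochondrion, had 0.957, and Kel, the Kell blood group protein, 0.953. Ube2l6, a ubiquitin-conjugating enzyme, had 0.967, the phosphatase Phospho1 0.958, the poly(A) polymerase Tent5c 0.947 and the glutathione peroxidase Gpx1 0.946. Nppb, Mrgpra4 and Olfr1355, at 0.961, 0.954 and 0.944, spanned far smaller ranges, with differences of 0.055, 0.044 and 0.078. Tent5c had the largest difference of the 10, 0.75 with an SE of 0.253 (limma, adjusted p = 0.302), from 1.42, 0.47, 0.53 and -0.04 in VEGF 1 to VEGF 4, against -0.26, 0.04, -0.19 and -0.21 in control. Without VEGF 1 it was 0.47.

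A wider list of erythroid genes had a median difference close to that of all genes, with VEGF 1 again its highest array on average. Of 77 names listed 64 were measured as genes, 31 higher and 33 lower, with a median difference of -0.0079 beside -0.010 over all genes. At an unadjusted p under 0.05, 5 of 64 were higher, against 4.62% of all genes, and 7 of 64 lower, against 7.84%. None passed over all genes (limma, adjusted). VEGF 1 exceeded all control arrays in 24 of the 64 genes, against 23.3% of all genes, and was the highest of the 8 arrays in 21 of 64, against 13.0%. The mean of the 64 was 0.10 in VEGF 1 and between -0.02 and -0.01 in the other VEGF arrays, against -0.02 to 0.04 in control.

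Within that list the other genes of heme synthesis and its transport split evenly, with 7 of 14 higher and 7 lower. At an unadjusted p under 0.05 there were 2 of 14 higher, against 4.62% of all genes, and 2 of 14 lower, against 7.84%. Slc25a37 had the largest difference among these 14, at 1.37, 0.28, 0.47 and 0.02 in VEGF 1 to VEGF 4, against -0.10, -0.02, -0.04 and -0.18 in control 1 to control 4. Its groups did not overlap, which held for 2.13% of all genes on the higher side, and its difference was 0.62 with an SE of 0.242 (limma, adjusted p = 0.352). Fech was at 0.62, 0.08, 0.16 and -0.03, against -0.04, 0.02, -0.07 and -0.02, a difference of 0.23 with an SE of 0.120 (adjusted p = 0.474). Without VEGF 1 the differences were 0.34 for Slc25a37 and 0.098 for Fech. Cpox, a later enzyme of the pathway that most tissues use, differed by 0.16 (adjusted p = 0.257), with its highest value in VEGF 2 rather than VEGF 1. Its groups did not overlap either. In the list this held for 2 of 14 on the higher side, against 2.13% of all genes. On the lower side it held for 1 of 14, against 4.71%. Fam210b, a mitochondrial protein linked to erythroid iron handling, differed by -0.11 (adjusted p = 0.383).

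**Figure D3:**
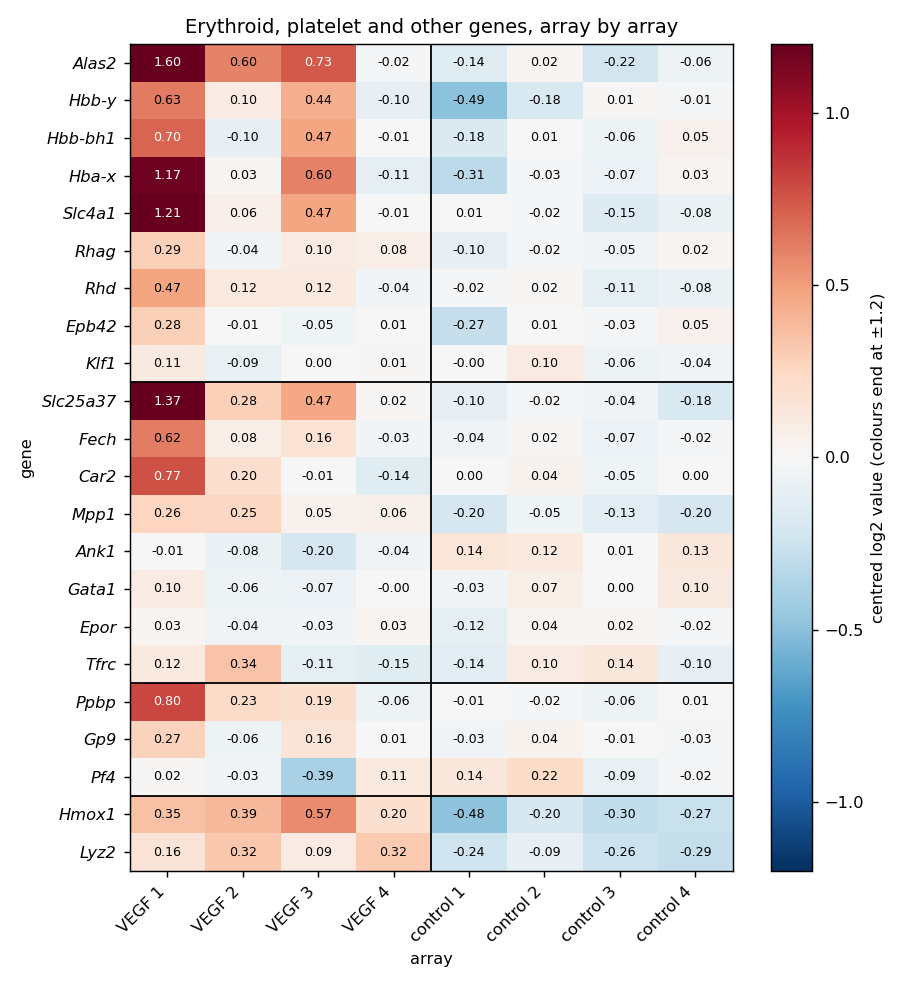
Centred log2 values (colour, with the value printed in each cell) of the 9 erythroid genes, of 8 other erythroid genes, of 3 platelet genes and of Hmox1 and Lyz2, in the 4 VEGF arrays (left of the line) and the 4 control arrays (right). Over the VEGF arrays Slc25a37 and Fech have the same order as Alas2 and Slc4a1. Hmox1 is above every control array in all 4 VEGF arrays.

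Of the listed transcription factors of the lineage, 5 of 14 were higher and 9 lower. At an unadjusted p under 0.05 (limma), 2 of 14 were higher, against 4.62% of all genes, and 3 of 14 lower, against 7.84%. Gata1, the master regulator of red cell genes, was at 0.10 in VEGF 1 and between -0.07 and 0 in the other VEGF arrays, against -0.03 to 0.10 in control, and differed by -0.044 with an SE of 0.049 (limma, adjusted p = 0.79). The smallest p-values were those of Myb with 0.20, Bcl11a with -0.16 and Gata2 with 0.19 (adjusted p = 0.326, 0.333 and 0.367), genes that neural or other cells of the cortex also use. Receptors, iron uptake and maturation genes had 10 of 16 higher and a median of 0.011. The erythropoietin receptor Epor differed by 0.016 with an SE of 0.043 and the transferrin receptor Tfrc by 0.050 with an SE of 0.111 (adjusted p = 0.93 and 0.914). Car2, a carbonic anhydrase of red cells and of glia, reached 0.77 in VEGF 1 but differed by 0.21 overall (adjusted p = 0.682), and without VEGF 1 by 0.022. Slc11a2 and Isg20 differed by 0.060 and 0.13 (adjusted p = 0.706 and 0.555).

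Other membrane and membrane skeleton genes had 8 of 17 higher and 9 lower. At an unadjusted p under 0.05 (limma), 1 of 17 was higher, against 4.62% of all genes, and 2 of 17 lower, against 7.84%. The groups did not overlap in 1 of 17 on the higher side, against 2.13%, and in 2 of 17 on the lower, against 4.71%. Mpp1, the red cell membrane palmitoylated protein p55, was above every control array in all 4 VEGF arrays, at 0.26, 0.25, 0.05 and 0.06, against -0.20, -0.05, -0.13 and -0.20, a difference of 0.30 with an SE of 0.062 (limma, adjusted p = 0.243). Ank1, the erythroid ankyrin that is also made in neurons, went the other way, with a difference of -0.18 and an SE of 0.051 (adjusted p = 0.243), and Add2, beta-adducin, which neurons make too, differed by -0.15 (adjusted p = 0.35). The list of other globins held 11 names, among them the globin chaperone Ahsp, and only Hbb-bh2, Hbq1a and Hbq1b were measured. These differed by 0.078, -0.023 and -0.15 (limma, adjusted p = 0.718, 0.957 and 0.502), with the sign of Hbq1a turning under quantile normalization.

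**Figure D4:**
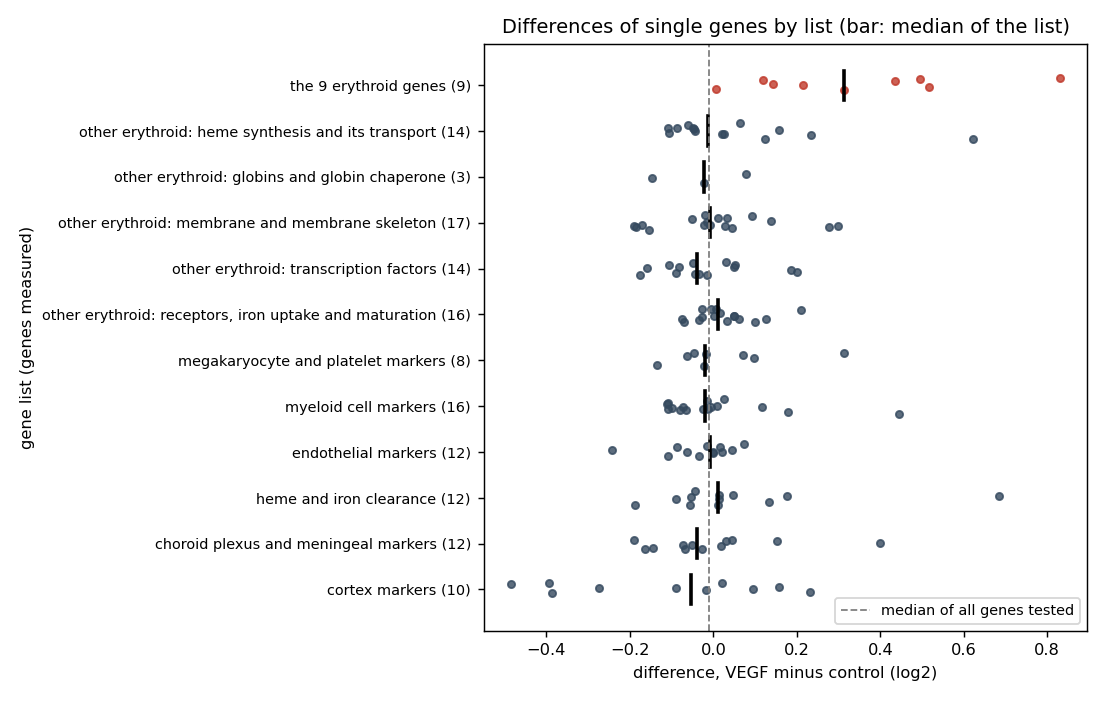
Difference between the groups for single genes (points, horizontal axis, VEGF minus control on the log2 scale) by list, with the median of each list as a bar and the median of all genes as a dashed line. The 9 erythroid genes have a median of 0.31, while the medians of the 11 other lists lie between -0.054 and 0.012.

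Markers of other blood and tissue compartments were read beside these genes. Megakaryocyte and platelet markers had 3 of 8 measured genes higher and a list mean of 0.17 in VEGF 1, -0.07 in VEGF 2, -0.01 in VEGF 3 and 0 in VEGF 4, while the control arrays lay at -0.05 to 0.07. Ppbp, a platelet chemokine precursor, was at 0.80, 0.23, 0.19 and -0.06, against -0.06 to 0.01, and differed by 0.31 with an SE of 0.151 (limma, adjusted p = 0.445). Gp9, a platelet adhesion receptor subunit, differed by 0.098 and Pf4, platelet factor 4, by -0.14 (adjusted p = 0.632 and 0.691). Without VEGF 1 the differences were 0.14 for Ppbp and 0.038 for Gp9. Myeloid markers had 5 of 16 higher and a median of -0.020. Lyz2, a lysozyme of macrophages, differed by 0.44 with an SE of 0.065 (limma, adjusted p = 0.243), and by 0.47 without VEGF 1. All 4 VEGF arrays of Lyz2 were above every control array, which held for 2.13% of all genes. Cd68, a macrophage lysosomal protein, differed by 0.18 and the neutrophil elastase Elane by -0.11 (limma, adjusted p = 0.345 and 0.454). The list mean of the myeloid markers was -0.01 in VEGF 1, between -0.05 and 0.08 in the other VEGF arrays and between -0.04 and 0.05 in control.

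Endothelial markers had 4 of 12 higher and a median of -0.0086. Their list mean was -0.01 in VEGF 1, 0.03 in VEGF 2, -0.26 in VEGF 3 and 0.06 in VEGF 4, while the control arrays lay at -0.19 to 0.10, so the erythroid order of the VEGF arrays was not that of the endothelial genes. The smallest p-values belonged to the tight junction gene Cldn5 with -0.24, the receptor Tie1 with -0.11 and the sialomucin Emcn with 0.074 (limma, adjusted p = 0.526, 0.732 and 0.778). With an array left out Cldn5 lay between -0.34 (without control 3) and -0.14 (without VEGF 3), Tie1 between -0.18 and -0.031 without the same arrays, and Emcn between 0.012 (without control 3) and 0.13 (without VEGF 3). Choroid plexus and meningeal markers had 5 of 12 higher, and their list mean was 0.11 and 0.17 in VEGF 1 and VEGF 2, but -0.30 and -0.07 in VEGF 3 and VEGF 4, while the control arrays lay at -0.16 to 0.17. Col1a1, Folr1 and Otx2 differed by 0.15, -0.14 and 0.40 (adjusted p = 0.594, 0.614 and 0.642). With an array left out they lay between 0.095 (without control 3) and 0.24 (without VEGF 3) for Col1a1, between -0.21 (without control 4) and -0.051 (without control 2) for Folr1, and between 0.20 (without VEGF 2) and 0.63 (without VEGF 4) for Otx2. Cortex markers had 4 of 10 higher and 6 lower. At an unadjusted p under 0.05 (limma), 2 of 10 were higher, against 4.62% of all genes, and 3 of 10 lower, against 7.84%. The list mean of the cortex markers was -0.25 in VEGF 1, -0.30 in VEGF 2, 0.07 in VEGF 3 and 0.08 in VEGF 4. The control arrays lay at -0.08 to 0.08. The 3 of smallest p, Bcl11b, Pax6 and Sox2, differed by -0.48, 0.23 and 0.16 (adjusted p = 0.243, 0.251 and 0.303). VEGF 1 and VEGF 2, which share the low cortex values, differed in the erythroid genes, with means of 0.72 and 0.08 over the 9. The part of these markers in the erythroid result was not tested.

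Genes that clear heme and iron had 7 of 12 higher and a median of 0.012. Hmox1, which opens the heme ring, was at 0.35, 0.39, 0.57 and 0.20 in VEGF 1 to VEGF 4, against -0.48, -0.20, -0.30 and -0.27 in control, so that VEGF 4 was above every control array, as it was in Rhag alone of the 9 erythroid genes, and VEGF 3, not VEGF 1, was the highest. The difference of 0.68 had an SE of 0.084 (limma, adjusted p = 0.219), and it was 0.69 without VEGF 1. The heme exporter Flvcr1 and its relative Flvcr2 differed by 0.13 and -0.19 (adjusted p = 0.355 and 0.44). Whether the difference of Hmox1 differs from those of the erythroid genes was not tested.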

How the data were processed

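RNA was extracted with a Qiagen RNeasy kit and 120 ng of total RNA was made into labelled cDNA, per the labels' protocols. Affymetrix Expression Console and the mouse build mm8 appear in the submitters' processing notes. How background was corrected and probes were summarised is not given there or in the labels. The deposited values are taken as log2 values from their range, since no source gives the base, for 28853 probe sets with 0 missing, each centred on its median over the 8 arrays to within 5e-07. Brightness is lost, so no filter on dim probe sets was possible, and the number of arrays limits the precision.

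Of the probe sets, 21789 had 1 gene symbol, 1621 several and 5443 none in the annotation used. Entrez identifiers gave the current RefSeq symbols (GRCm38.p6), and probe sets of a gene were averaged. Groups came from the sample titles. The test was limma 3.58.1 in R 4.3.3 (lmFit and eBayes, VEGF minus control, two-sided, no covariate), with Benjamini-Hochberg adjustment over all 19938 genes at 0.05. It was tested on simulated data. Promoter sequences are from RefSeq, GRCm38.p6.

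The members and lists were chosen with earlier results of these data known. Every measured member was named, from each other list the 3 genes of smallest p, a few fixed genes, and the 10 genes most like the members, leaving out predicted genes. Alternatives were each array left out in turn, Xist as a covariate, array weights, quantile normalization, centring each array on its median, the methods' t-test, probe sets tested alone, a prior with trend and robust fitting, and the replicate number as a block.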

Additional observations from a re-analysis of the deposited data

Results flagged for a closer look

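For each named gene, the array at either end of a group of 4 was set against the others. Of 110 such groups 4 held an array whose gap to its neighbour took up more of the group's range than Dixon's limit for 4 values allows, where chance gives about 1 in 20, and none of the 4 was a group of the 9 erythroid genes. All 4 were control 3. It stood apart in Xist at 5.269, in Emcn at -0.257, in Tie1 at -0.224 and in Ank1 at 0.008, the last against 0.12 to 0.14 in the other control arrays. Xist is at its female level there, the only such array of the control group.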

How the results depend on the processing

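Over the 16 alternatives, 8 of the 9 erythroid genes kept a positive difference and none of the 9 passed the threshold, and the adjusted p ranged from 0.105 to 0.634 for Alas2 (0.157 to 0.662 for Hbb-y). The difference of Klf1 changed sign, between -0.0275 and 0.0406 with an array left out. Leaving out an array gave 0.54 to 1.08 for Alas2, 0.27 to 0.69 for Hba-x and 0.17 to 0.43 for the median of the 9, the lowest each time without VEGF 1 and the highest without VEGF 4, or for the median without VEGF 2. Over all genes 1 passed under quantile normalization, Lhx6, which is no erythroid gene, and between 0 and 10 passed with an array left out, the 10 without VEGF 4 and none of the 9 among them. The count at an unadjusted p was 1526 to 2881 with an array left out, lowest without control 1, and 1627 without control 4. The median of the wider erythroid list turned positive with arrays centred on their medians (0.0012), quantile normalization (0.0213) and Xist as a covariate (0.0128), and lay between -0.0264 and 0.015 with an array left out. Hbq1a turned to 0.0076 under quantile normalization and to 0.0252 with the Xist covariate, and lay between -0.0805 and 0.0454 with an array left out, as Epor did between -0.0167 and 0.0355 and Tfrc between -0.047 and 0.1155. Hmox1 passed without VEGF 4 (0.74, adjusted p = 0.0347). The causes were not tested.

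With the replicate number as a block, 0 genes passed, 2649 had an unadjusted p under 0.05 and Alas2 had an adjusted p of 0.232. No label says that arrays of the same number share a litter or batch. Their deviations correlated at 0.052, -0.13, 0.454 and 0.301, and 4 of 8 arrays correlated best with their own number.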
